A study of Mus musculus with 12 samples.

Results

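The guanylate-binding proteins (GBPs) were followed across 12 mouse brain tumors. The family is represented by 9 genes, Gbp2 to Gbp10, found among the 47069 genes of the count table by matching Ensembl identifiers to these symbols. All 9 had enough reads to enter the tests. Each library is mRNA from a B16 F1 melanoma, a mouse tumor cell line, grown in the brain of a C57BL/6 mouse and removed on day 9. The series asked how antibodies against the checkpoint receptors PD-1 and CTLA-4 act on a brain tumor with and without a tumor elsewhere in the body. There were 4 groups of 3 libraries, described as biological triplicates. Intracranial-only IgG mice carried the brain tumor and received control IgG, and intracranial-only therapy mice received anti-PD-1 plus anti-CTLA-4. Both-tumor IgG and both-tumor therapy mice carried an extracranial tumor as well and received the same treatments. Age, sex, antibody doses and the site of the extracranial tumor are not given in the sources used here. Replicate numbers follow accession order and pair nothing across groups.

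GBPs are large GTPases that cells make in response to interferon, above all interferon gamma from T cells and natural killer cells. They assemble on the membranes of pathogens and of the vacuoles around them, and they help to open access to inflammasomes, the complexes that activate caspases. Interferon gamma binds its receptor and raises the transcription factor IRF1, which acts on Gbp promoters at interferon-stimulated response elements (ISRE). Gamma-activated sites (GAS) are another class of promoter element through which interferon gamma acts. Gbp2 and Gbp5 are among the members that carry a lipid anchor.

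The genes lie in 2 clusters. Gbp2 (chr3:142620602-142638008), Gbp3 (chr3:142560026-142573209), Gbp5 (chr3:142493978-142522344) and Gbp7 (chr3:142530342-142550149) are on the plus strand of chromosome 3. Gbp4 (chr5:105115767-105139586), Gbp6 (chr5:105270702-105293698), Gbp8 (chr5:105014150-105139540), Gbp9 (chr5:105077630-105139539) and Gbp10 (chr5:105215699-105239533) are on the minus strand of chromosome 5, all in GRCm38. All 9 are annotated as protein coding. The sources used here held no upstream sequence for Gbp4, Gbp6, Gbp8, Gbp9 and Gbp10, so these were not searched for motifs. Upstream sequence from RefSeq (GRCm38.p6) was matched for Gbp2, Gbp3, Gbp5 and Gbp7. It was searched for an ISRE-type motif, GAAANNGAAA (TTTCNNTTTC on the other strand), and a GAS-type motif, TTCNNNGAA, which reads the same on both strands; the motifs may overlap. The 4 stretches of 30 bases below show the ISRE-type match that each of these members has within 250 bases of a RefSeq start, in capitals, 5′ to 3′ on the plus strand.
Gbp2, chr3:142620594-142620623: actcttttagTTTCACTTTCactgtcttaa
Gbp3, chr3:142559989-142560018: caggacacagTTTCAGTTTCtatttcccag
Gbp5, chr3:142496759-142496788: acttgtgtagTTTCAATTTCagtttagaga
Gbp7, chr3:142530273-142530302: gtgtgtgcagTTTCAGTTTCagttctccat
The matches lie 59 to 50 bases upstream of the RefSeq start in Gbp2, 45 to 36 in Gbp3, 165 to 156 in Gbp5 and 53 to 44 in Gbp7. By the gene spans given above, the Gbp2 and Gbp5 matches lie inside the annotated gene. In the windows with these matches, 61 bases in Gbp2, 18 in Gbp3, 34 in Gbp5 and 0 in Gbp7 are in annotated exons. Gbp3 has a second match at 39 to 30 that overlaps the first, and its other RefSeq start has none. Of all 32851 upstream windows of 250 bases, 978 (2.98%) hold an ISRE-type match, 2306 (7.02%) a GAS-type match and 109 (0.332%) both. Gbp5 and Gbp7 hold both types, each with 2 GAS-type matches. Those of Gbp5 lie 245 to 237 and 52 to 44 bases upstream of its RefSeq start. The whole Gbp7 window is shown because its 2 GAS-type matches, at 106 to 98 and 87 to 79 bases upstream, lie ahead of the ISRE-type match. The matches are in capitals.
Gbp7, chr3:142530086-142530335: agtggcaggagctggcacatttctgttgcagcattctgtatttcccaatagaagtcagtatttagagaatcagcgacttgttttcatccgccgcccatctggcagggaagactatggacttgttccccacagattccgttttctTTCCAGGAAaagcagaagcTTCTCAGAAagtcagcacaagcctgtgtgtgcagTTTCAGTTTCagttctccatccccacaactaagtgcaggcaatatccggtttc
These matches describe the sequence and are not evidence of binding.

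Libraries held 18427495 to 22294182 reads assigned to genes. All 7 melanocyte genes used to check the tumor label had reads in every library, and their summed level was 21450 to 28760 CPM, counts scaled to the library total. Neuron, oligodendrocyte and microglia markers were also read in every library. The both-tumor IgG replicate 2 library carries a different suffix in its sample name, and the meaning of the suffix is not given. It stood apart from its group in the Gbp genes. So did intracranial-only IgG replicate 2 and intracranial-only therapy replicate 3, which carry the common suffix.

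Gbp levels varied widely between libraries of the same group. Reads assigned to the 9 genes together were 376, 26785 and 464 in intracranial-only IgG replicates 1 to 3, and 321, 985 and 22440 in intracranial-only therapy. They were 12424, 1153 and 10346 in both-tumor IgG and 20668, 76096 and 57709 in both-tumor therapy. The family thus took from 0.00174% to 0.385% of the reads of a library. One intracranial-only IgG library and 1 intracranial-only therapy library were high while the other two of each group were low, 1 both-tumor IgG library was low, and no both-tumor therapy library was low. In bulk tissue, fewer cells of a type and less RNA per cell cannot be told apart.

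Gbp2 was the most abundant member per unit of gene length in 11 of 12 libraries, with Gbp3 above it in the other one. Its level in FPKM, which scales reads for gene length and library total, was 3.21, 325 and 3.77 in intracranial-only IgG, 3.05, 12.4 and 262 in intracranial-only therapy, 130.5, 14.7 and 116 in both-tumor IgG, and 230, 1001 and 618 in both-tumor therapy. Group means were 111 ± 186, 92.4 ± 147, 86.9 ± 63.0 and 616 ± 385.5 FPKM in that order (SD, n = 3). The 3 lower groups overlapped widely, and the lowest both-tumor therapy library was below the highest intracranial-only IgG library. The mean of the both-tumor therapy group was the highest of the 4 for 9 of 9 members, and the order of the other groups was within their SD.

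Gbp5, which assists inflammasome assembly, was a lower-level member with the same profile. It measured 0.219, 14.2 and 0.299 FPKM in intracranial-only IgG and 0.140, 0.545 and 8.24 in intracranial-only therapy. It measured 7.30, 0.439 and 6.36 FPKM in both-tumor IgG and 13.4, 60.1 and 49.4 in both-tumor therapy. The high library of each intracranial-only group lay above all 3 both-tumor IgG libraries.

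Gbp7, linked to the host cell's control of vacuolar pathogens, kept the highest floor relative to its peak. Its levels were 1.63, 54.0 and 1.98 FPKM in intracranial-only IgG and 1.25, 3.19 and 43.9 in intracranial-only therapy. They were 29.3, 3.50 and 30.3 FPKM in both-tumor IgG and 45.5, 109 and 90.8 in both-tumor therapy. All 3 both-tumor therapy libraries were above the both-tumor IgG libraries, while intracranial-only IgG replicate 2 exceeded both-tumor therapy replicate 1.

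Gbp8 was the lowest member in 10 of 12 libraries and was close to absent in several. It had 1, 296 and 1 reads in intracranial-only IgG, 6, 7 and 152 in intracranial-only therapy, 132, 1 and 49 in both-tumor IgG, and 229, 2159 and 1153 in both-tumor therapy. Its FPKM was 0.0207 to 6.61 outside the both-tumor therapy group and 4.64, 46.7 and 22.7 within it.

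The remaining members followed the same ordering of libraries. Gbp3 spanned 1.70 to 252 FPKM, Gbp4 0.173 to 274, Gbp6 0.0884 to 27.3, Gbp9 0.164 to 29.9 and Gbp10 0.0246 to 88.5. Both-tumor therapy replicate 2 was the highest library, replicate 3 the second and intracranial-only IgG replicate 2 the third for 9 of 9 genes in CPM. The same 7 libraries were the 7 highest for every member, and the 7th exceeded the 8th by 6.33-fold for Gbp8 to 14.9-fold for Gbp6. Gbp6 and Gbp10 are uncertain as separate genes, since 73.3% of the 50-base stretches of Gbp10 also occur in Gbp6 and 46.0% of those of Gbp6 occur in Gbp10. The overlapping spans of Gbp4, Gbp8 and Gbp9 share 0.814% to 1.77% of exonic bases. Of their 50-base stretches, 7.53% in Gbp4, 18.1% in Gbp8 and 8.05% in Gbp9 occur in another Gbp gene. The reads of Gbp8 are therefore uncertain in part as well.

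**Figure D1:**
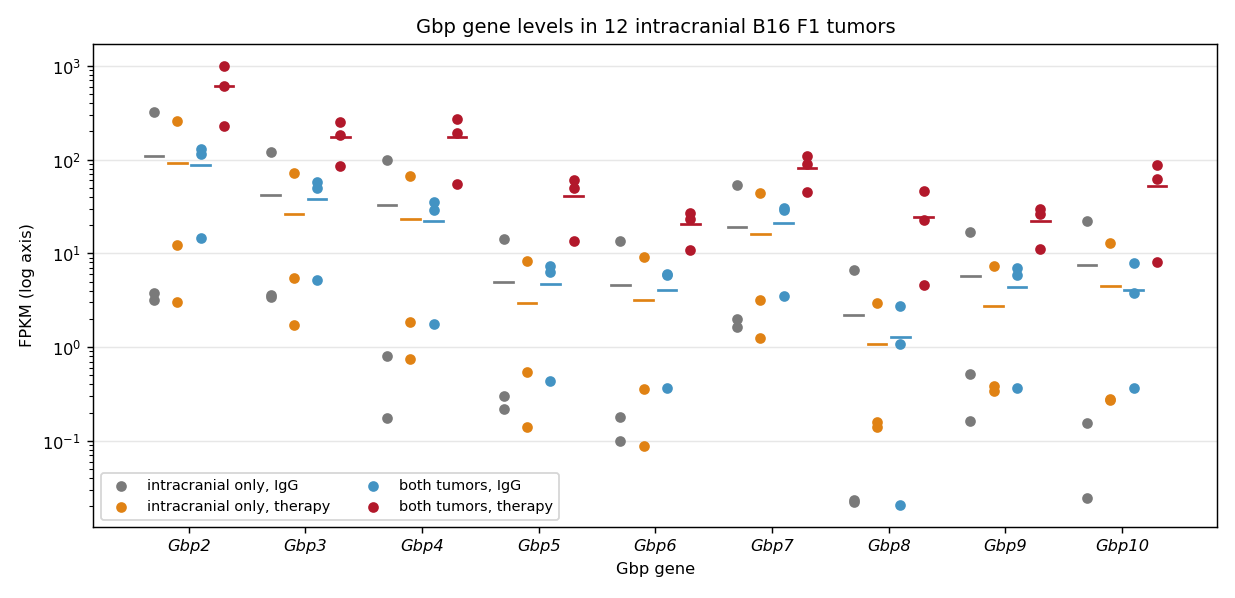
FPKM of each Gbp gene on a log axis in the 12 libraries, with points for libraries and short bars for group means (n = 3). Replicates 2 and 3 of both-tumor therapy hold the top positions, with intracranial-only IgG replicate 2 next, and 1 library of each intracranial-only group sits far above the other two, as for Gbp2 at 325 and 262 FPKM.

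The range from the lowest to the highest library was wide for every member. On CPM scaled by TMM factors, the highest library exceeded the lowest by 83.6-fold for Gbp7 (95% counting interval 68.2 to 104), 142.5-fold for Gbp3 and 315-fold for Gbp2 (258 to 390). The ratio was 177 for Gbp9, 296.5 for Gbp6, 413 for Gbp5 and 1537 for Gbp4 (780 to 3560). For Gbp8 it was 2124 (381 to 83930) and for Gbp10 3497 (627 to 138200), each resting on a lowest library with 1 read. The intervals cover counting error only. The SD of log2 CPM over the 12 libraries was 2.42 for Gbp7 to 3.54 for Gbp4, against a median of 0.346 over 15925 tested genes. Only 423 genes (2.66%) varied as much as Gbp7 or more.

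The makeup of the family shifted less than its sum. Gbp2 made up 33.7% to 55.2% of the summed FPKM (median 48.7%), Gbp3 13.3% to 39.2% (median 19.8%), Gbp7 5.77% to 17.9% (median 11.3%) and Gbp4 1.90% to 15.1% (median 11.9%). The other 5 members each stayed under 5%. Gbp3 had its largest shares, 39.2% and 30.9%, in intracranial-only IgG replicates 1 and 3, where Gbp4 had 1.90% and 7.27%. In both-tumor therapy, Gbp3 made up 18.3%, 13.3% and 14.4% and Gbp4 11.98%, 14.5% and 15.1%.

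**Figure D2:**
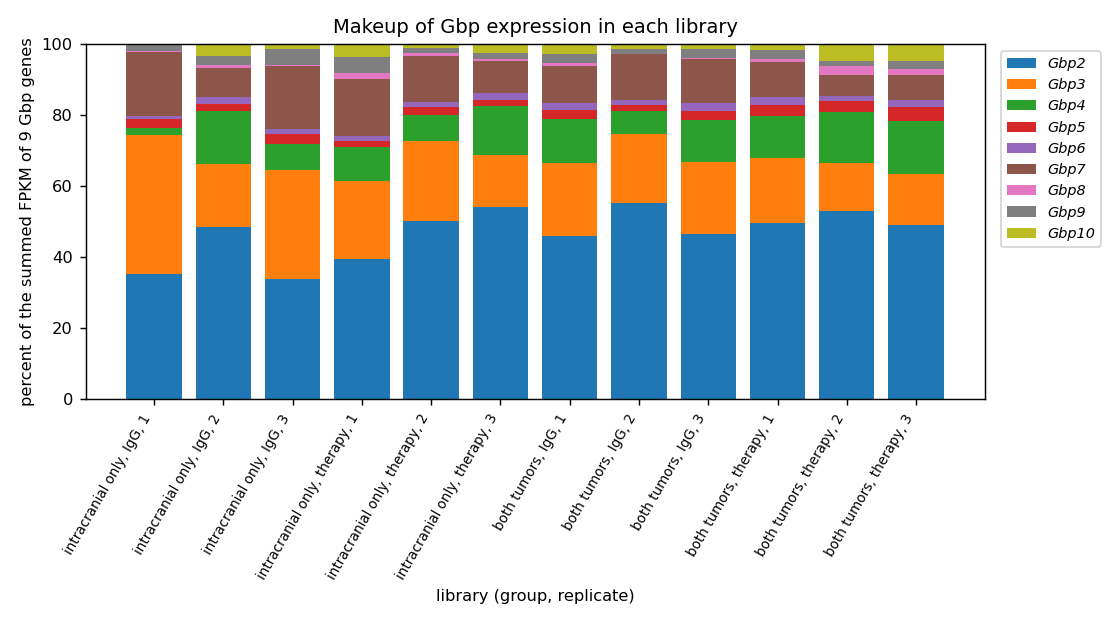
Share of each Gbp gene in the summed FPKM of the 9 genes, in percent, for each library. Gbp2 is the largest block in 11 of 12 libraries, and Gbp3 is largest in intracranial-only IgG replicate 1 at 39.2%.

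With both tumors present, Gbp genes were measured higher under therapy than under IgG, but no member passed the test. The median log2 fold change over the 9 genes was 2.84, from 1.97 ± 1.49 (SE) for Gbp7 to 4.27 ± 1.94 for Gbp8, against a median of 0.02 over all tested genes. Adjusted p-values from edgeR's quasi-likelihood test were 0.151 to 0.348. Of 9 members 0 were called, beside 5.39% of all tested genes, and 0 had an unadjusted p under 0.05. DESeq2 also called 0 members, and limma on log2(FPKM + 1) called 1, Gbp8 (3.21 ± 0.95, adjusted p = 0.0443). All 3 therapy libraries exceeded all 3 IgG libraries for 8 of 9 members, an ordering that 17.9% of tested genes showed in that direction. Gbp10 was the exception, with 8.19 FPKM in therapy replicate 1 against 7.98 in IgG replicate 1, which overlapped on TMM-scaled CPM.

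With the intracranial tumor only, therapy and IgG did not separate any member. The median log2 fold change was -0.63, from -1.03 ± 1.56 for Gbp9 to -0.20 ± 1.44 for Gbp7, with adjusted p-values of 0.819 to 0.974 (edgeR). Of 9 members 0 were called, beside 0.0% of tested genes, and 2151 genes had an unadjusted p under 0.05, with 0 members among them. DESeq2 called 1030 genes and 0 members, and limma 0 genes. No member had groups that did not overlap, where 8.8% of tested genes had therapy wholly higher. Leaving out intracranial-only IgG replicate 2 turned the direction for 9 of 9 members, with a median of 4.58 and a smallest adjusted p of 0.311. Leaving out intracranial-only therapy replicate 3 gave a median of -3.87. Without replicate 1 or replicate 2 of that group the direction turned for Gbp2, Gbp4, Gbp6 and Gbp7, with medians of -0.08 and -0.15.

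Under IgG, the presence of an extracranial tumor likewise left the groups overlapping. The median was -0.37, from -0.91 ± 1.85 for Gbp10 to 0.11 ± 1.44 for Gbp7, and every adjusted p was 1 (edgeR). Of 9 members 0 were called, beside 0.0% of tested genes, and 188 genes had an unadjusted p under 0.05, with 0 members among them. DESeq2 and limma called 0 genes too. No member was wholly higher with both tumors, against 1.68% of tested genes. Without intracranial-only IgG replicate 2 the median was 4.61, and without both-tumor IgG replicate 2 it was 0.13.

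Under therapy, Gbp genes were measured higher in mice with both tumors than with the intracranial tumor only, again without a member passing the test. The median was 2.84, from 2.28 ± 1.51 for Gbp7 to 4.44 ± 1.96 for Gbp8 (adjusted p = 0.0849 by edgeR). Adjusted p-values of the family were 0.0849 to 0.272. Of 9 members 0 were called, beside 45.4% of tested genes, and 1, Gbp8, had an unadjusted p under 0.05. Gbp3, Gbp5, Gbp6, Gbp8 and Gbp9 were wholly higher with both tumors, 5 of 9 members, against 31.4% of tested genes. The calls depended on the tool and on single libraries. DESeq2 called 2 members, Gbp8 (adjusted p = 0.041) and Gbp5 (adjusted p = 0.0441), and limma called 5, Gbp5, Gbp6, Gbp8, Gbp9 and Gbp10. Without intracranial-only therapy replicate 3 the median was 6.40 and edgeR called 4 (Gbp3, Gbp5, Gbp7 and Gbp9), and without intracranial-only IgG replicate 2 it called 2 (Gbp5 and Gbp8). This comparison shares its both-tumor therapy libraries with the comparison of therapy and IgG, so the similar values are not independent.

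The therapy effect with both tumors minus that with the intracranial tumor only was a median of 3.39 on the log2 scale. Values ran from 2.17 ± 2.06 for Gbp7 to 5.25 ± 2.58 for Gbp8, with adjusted p-values of 0.156 to 0.452 (edgeR). Of 9 members 0 were called, beside 22.0% of tested genes, and 0 had an unadjusted p under 0.05. DESeq2 and limma called 0 members. This difference rested on intracranial-only IgG replicate 2, without which it was below 0 for 9 of 9 members (median -1.23, -2.63 to -0.43). The SE of the Gbp genes was 2.06 to 2.76 here.

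**Figure D3:**
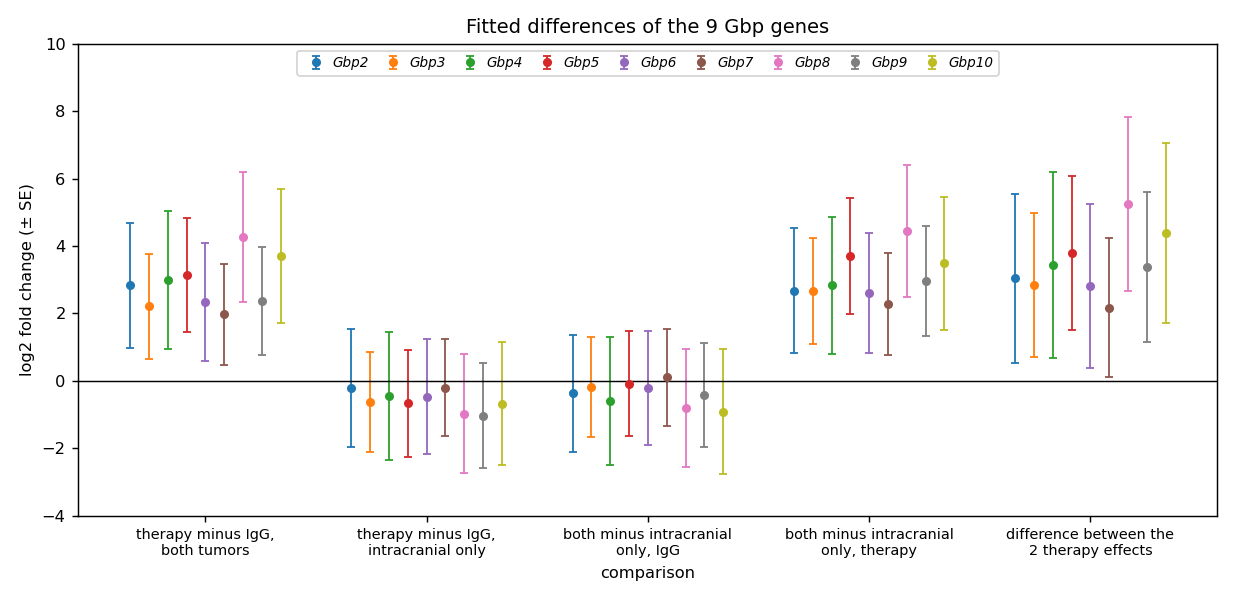
Fitted log2 fold change of each Gbp gene with its SE (edgeR, 12 libraries) in the 5 comparisons. Medians are 2.84, -0.63, -0.37, 2.84 and 3.39, and the bars of every gene cross 0 in the comparisons with medians of -0.63 and -0.37.

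**Figure D4:**
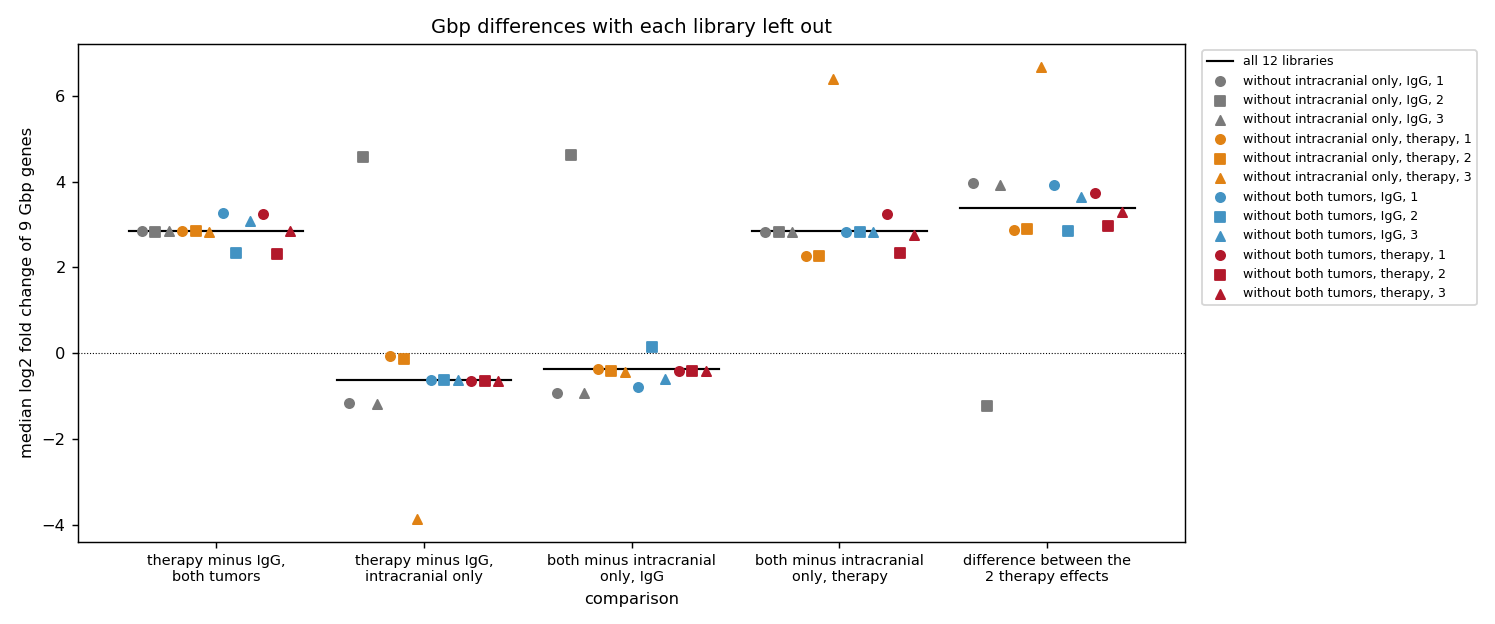
Median log2 fold change of the 9 Gbp genes in each comparison with all libraries (line) and with each library left out (points). Without intracranial-only IgG replicate 2 the median moves from -0.63 to 4.58, from -0.37 to 4.61 and from 3.39 to -1.23.

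Within each of the first 3 groups below, T cell markers were highest in a library with high Gbp reads. Markers of brain cells followed the Gbp reads in some libraries and not in others. The summed level of 9 T cell markers was 1.34 to 27.2 CPM in intracranial-only IgG, 2.19 to 13.8 in intracranial-only therapy, 2.12 to 20.01 in both-tumor IgG and 54.3 to 119 in both-tumor therapy. The highest of these in the first 3 groups were in intracranial-only IgG replicate 2 (27.2), intracranial-only therapy replicate 3 (13.8) and both-tumor IgG replicate 3 (20.01), each among the libraries with high Gbp reads. Intracranial-only therapy replicate 3 had 13.8 CPM of T cell markers with 22440 Gbp reads, against 54.3 CPM and 20668 reads in both-tumor therapy replicate 1. No T cell marker was at 0 across a group. Of the 9 markers, 8 were called higher with both tumors under therapy, where 24.4% of all tested genes were called higher and 45.4% in either direction, and 0 in the other comparisons. That count fell to 2 and 1 without intracranial-only therapy replicates 1 and 2, to 5 without both-tumor IgG replicate 1, and to 3 without either replicate 2 or replicate 3 of both-tumor therapy. The 8 monocyte and macrophage markers summed to 90.0 to 470, 82.4 to 158, 98.7 to 283 and 583 to 879 CPM in the same order, and 5 were called higher with both tumors under therapy, or 3 without intracranial-only therapy replicate 1 or replicate 2. The 7 microglia markers summed to 68.7 to 101, 45.1 to 54.8, 42.6 to 165 and 180 to 398 CPM. Among libraries with high Gbp reads, intracranial-only IgG replicate 2 had the highest microglia sum of its group (101). Intracranial-only therapy replicate 3, also high in Gbp reads, had the lowest of its group (45.1). The 8 neuron markers summed to 312 to 553, 104 to 114, 109 to 664 and 505 to 1460 CPM. Intracranial-only IgG replicate 2, high in Gbp reads, had the lowest neuron sum of its group, and the lowest for oligodendrocytes (336) and astrocytes (375). Both-tumor IgG replicate 2, low in Gbp reads, had the lowest of its group for microglia (42.6), neurons (109), oligodendrocytes (215) and astrocytes (128). With both tumors under therapy, 7 of 7 microglia, 8 of 8 neuron, 6 of 6 oligodendrocyte, 5 of 6 astrocyte and 4 of 7 endothelial markers were called higher, beside the same 24.4% of all tested genes. Of 5 natural killer cell markers, 0 were called in any comparison with all 12 libraries. They summed to 0.912 to 14.9 CPM in intracranial-only IgG and 1.75 to 7.27 in intracranial-only therapy. Their sums were 1.06 to 9.71 CPM in both-tumor IgG and 11.7 to 27.2 in both-tumor therapy. The highest natural killer sum of each of the first 3 groups was in a library with high Gbp reads. The part of all these cells in the Gbp differences was not tested.

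Upstream of the family, Ifng itself was near the detection limit in the libraries with low Gbp reads. It measured 0, 2.07 and 0 FPKM in intracranial-only IgG, 0.0448, 0 and 2.30 in intracranial-only therapy, 0.964, 0.161 and 0.471 in both-tumor IgG, and 3.22, 15.5 and 6.39 in both-tumor therapy. Its log2 fold change for therapy with both tumors was 3.96, with an adjusted p of 0.147 (edgeR). Ifngr1, a receptor subunit, rose by 0.69 ± 0.17 in that comparison (adjusted p = 0.0498) and was 0.81 ± 0.17 higher with both tumors under therapy (adjusted p = 0.00543). The Ifngr1 call for therapy was lost when any 1 of 10 libraries was left out (all but intracranial-only IgG replicate 2 and both-tumor therapy replicate 1), with values of 0.58 to 0.82. The call for both tumors under therapy held without each of the 12 libraries. Irf1 was measured 2.15 ± 1.23 and 2.43 ± 1.25 higher in the same 2 comparisons (adjusted p = 0.234 and 0.132) and did not pass the test. Of 14 genes of interferon gamma signaling, 2 were called higher for therapy with both tumors (Ifngr1 and Socs3), beside 1.24% of all tested genes. With both tumors under therapy, 3 were called higher (Ifngr1, Irf2, Socs3) and 1 lower (Ptpn2). Of all tested genes, 24.4% were called higher there and 45.4% in either direction, and nothing particular to these genes is read from their count. The 2 calls for therapy became 0 when any 1 of 9 libraries was left out, 1 without both-tumor IgG replicate 3 and 3 without intracranial-only IgG replicate 2. The 3 higher calls became 7 without intracranial-only IgG replicate 2 and 9 without intracranial-only therapy replicate 3. The type I ligands Ifna2 and Ifna4 had no read in any group, and Ifnb1 had none in the intracranial-only groups.

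Among the GTPases and partners that act beside GBPs, the immunity-related GTPases resembled the Gbp genes without passing the test. Their median log2 fold change was 2.47 for therapy with both tumors and 2.68 with both tumors under therapy, with 0 of 8 genes called in each; without intracranial-only therapy replicate 3, 3 were called higher in the latter. Of 9 inflammasome and pyroptosis partners, 5 were called higher with both tumors under therapy: Aim2, Casp1, Nlrp3, Il18 and Il1b. Of all tested genes, 24.4% were called higher there and 45.4% in either direction, and nothing particular to these partners is read from their count. The count was 8 without intracranial-only IgG replicate 2, 1 without intracranial-only therapy replicate 1, replicate 2 or both-tumor therapy replicate 2, and 2 without both-tumor therapy replicate 3. Aim2, a DNA sensor, was 2.84 ± 0.59 higher (adjusted p = 0.00511), Nlrp3, another sensor, 2.43 ± 0.73 (adjusted p = 0.0207) and Casp1, the caspase of the inflammasome, 2.71 ± 0.92 (adjusted p = 0.0341). The Aim2 call held without each of the 12 libraries. The Casp1 and Nlrp3 calls each depended on 4 libraries, and leaving out any 1 of them ended the call: intracranial-only therapy replicates 1 and 2, and replicates 2 and 3 of both-tumor therapy. They had adjusted p-values up to 0.106 and 0.0741 over the alternatives. Of 10 autophagy conjugation factors, 5 were called higher in the same comparison (Atg12, Gabarap, Gabarapl1, Map1lc3a and Map1lc3b), beside the same 24.4%, with a list median of 0.37 against 0.03 over all tested genes. Of 3 prenyltransferase subunits, which attach the lipid anchor, 0 were called.

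**Figure D5:**
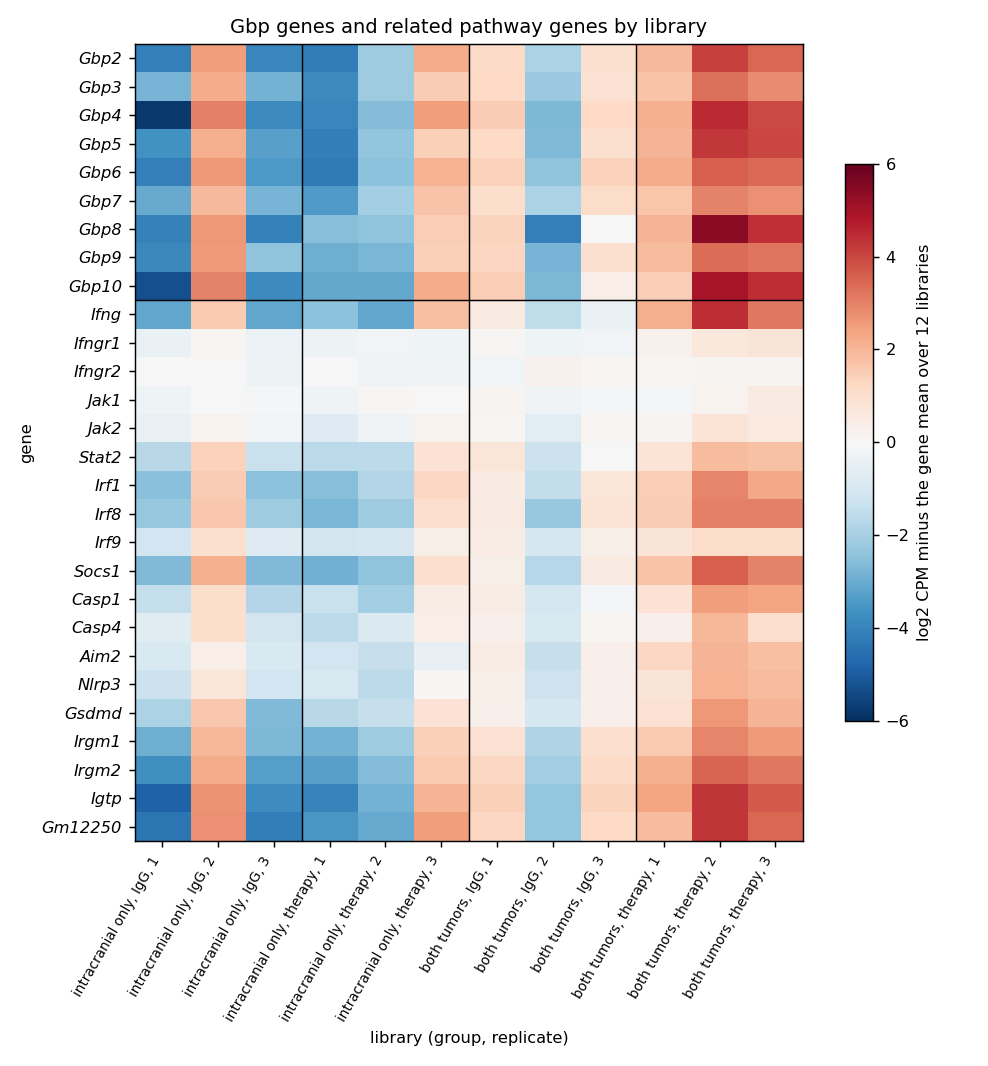
Log2 CPM of 9 Gbp genes and related pathway genes (rows) minus each gene's mean over 12 libraries (columns), in color. Gbp genes and immunity-related GTPases such as Igtp share their high and low libraries, and Ifngr2 and Jak1 vary little.

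The profile of the family over the 12 libraries was compared with 13013 other genes by the root mean square difference of centred log2 CPM, where 0 is an identical profile. The median over all candidates was 2.89. The 10 closest genes were H2-DMa (0.259), Prf1 (0.315), H2-Eb1 (0.322), Cd74 (0.326), Irgm2 (0.332), H2-Aa (0.359), Igtp (0.374), H2-Ab1 (0.385), Ifi47 (0.421) and Psmb8 (0.429). H2-DMa, H2-Eb1, H2-Aa, H2-Ab1 and Cd74 encode parts of the class II antigen presentation pathway, Irgm2, Igtp and Ifi47 are immunity-related GTPases, Psmb8 is an immunoproteasome subunit and Prf1 is perforin. The members themselves lay at 0.298 for Gbp5 to 0.769 for Gbp8.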

How the data were processed

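Messenger RNA of 12 intracranial tumors was sequenced, 3 libraries in each of 4 groups taken from the labels. The authors deposited raw counts per gene and FPKM values. The submitters' processing notes name Bowtie2 2.2.3, TopHat2 2.0.12 and HTSeq 0.6.1 and the build GRCm38; the gene annotation, strand setting and handling of reads that fit several genes are not given in the sources used here. For 16062 genes with a read in every library, the deposited FPKM equals count over gene length and library total within a relative tolerance of 1e-06. The length behind the FPKM is shorter than the annotated exonic length for all 9 genes, which affects levels between genes.

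Counts were tested with edgeR 4.0.16 in R 4.3.3 (quasi-likelihood, TMM, filterByExpr, 4 group means, all 12 libraries), with Benjamini-Hochberg adjustment over 15925 genes and a threshold of 0.05. SE is the log2 fold change over the square root of F. Alternatives were DESeq2 1.42.0 with its default independent filtering, limma 3.58.1 on log2(FPKM + 1), RLE factors, no filter, only the groups compared, and each library left out. The procedure was also run on simulated counts, whose outcome is not given here, and nothing about the Gbp genes is read from it. Lowest-library ratios use exact 95% intervals. With 3 libraries a group, p-values set a group difference against the spread between these samples.

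Named genes are all 9 members, the relatives Gbp2b and Gbp11, listed pathway genes, and the 10 genes of most similar profile; 1 listed gene is not reported here. Members and lists were chosen with earlier results of these data known.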

Additional observations from a re-analysis of the deposited data

Results flagged for a closer look

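Aim2, a cytosolic DNA sensor and partner of the GBPs, was marked because the therapy effect differed between mice with and without the extracranial tumor. The difference of the 2 effects was 2.49 ± 0.80 on the log2 scale (adjusted p = 0.0488, edgeR). Of all tested genes, 22.0% were called for this difference, and Aim2 was the 1 gene called of 9 inflammasome and pyroptosis partners. Nothing particular to Aim2 is read from the call. Its level was 0.769, 2.16 and 0.802 FPKM in intracranial-only IgG and 0.640, 0.518 and 1.06 in intracranial-only therapy. It was 2.198, 0.525 and 2.09 FPKM in both-tumor IgG and 4.01, 6.98 and 5.79 in both-tumor therapy, where every library exceeded all others. The call held with 2 of the 12 libraries left out in turn and was lost with the other 10, over values of 1.71 to 2.85 and adjusted p-values of 0.0181 to 0.127 across 16 alternatives.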

How the results depend on the processing

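Directions of the Gbp genes were stable under every alternative in 2 of the 5 comparisons: therapy against IgG with both tumors, and both tumors against intracranial only under therapy. The number of calls was not. For therapy against IgG with both tumors, 858 genes were called by edgeR, 0 with RLE factors, 0 without a filter, 0 with only the groups compared, 3269 by DESeq2 and 2630 by limma, which called 1 member. The smallest adjusted p of edgeR was 0.0498 there, at the threshold. With the intracranial tumor only, DESeq2 called 1030 genes and a fit of only these groups 839, against 0. Gbp8 was not kept by the count filter in that fit. Under therapy, members called were 2 by DESeq2, 1 (Gbp8) with only the groups compared and 5 by limma, against 0. The difference of therapy effects needs all 4 groups, so no fit of only the groups compared was made.

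On the log2(FPKM + 1) scale, the therapy effect with the intracranial tumor only turned to 0.37 for Gbp2 and 0.23 for Gbp4. The effect of the extracranial tumor under IgG turned to 1.73 for Gbp2, 0.97 for Gbp3, 1.28 for Gbp4, 0.62 for Gbp5, 0.60 for Gbp6, 0.00 for Gbp8, 0.42 for Gbp9 and 0.36 for Gbp10. The cause was not tested.

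With each library left out in turn, genes called ranged from 0 to 2394 (therapy, both tumors), 0 to 1002 (therapy, intracranial only), 4710 to 8128 (both tumors, under therapy) and 0 to 4367 (difference of therapy effects). Members called under therapy ranged from 0 to 4. The therapy effect with the intracranial tumor only ranged over -3.84 to 4.77 for Gbp2, -3.54 to 2.94 for Gbp3, -4.66 to 5.61 for Gbp4, -3.82 to 3.57 for Gbp5, -4.36 to 4.58 for Gbp6, -3.10 to 3.20 for Gbp7, -3.87 to 5.46 for Gbp8, -3.99 to 3.06 for Gbp9 and -4.74 to 5.68 for Gbp10. The effect of the extracranial tumor under IgG ranged over -0.94 to 4.61 for Gbp2, -0.73 to 3.39 for Gbp3, -1.19 to 5.46 for Gbp4, -0.65 to 4.14 for Gbp5, -0.78 to 4.84 for Gbp6, -0.43 to 3.51 for Gbp7, -2.04 to 5.63 for Gbp8, -0.99 to 3.67 for Gbp9 and -1.88 to 5.45 for Gbp10. The difference of therapy effects ranged over -1.93 to 6.66 for Gbp2, -0.74 to 5.73 for Gbp3, -2.63 to 7.63 for Gbp4, -0.43 to 6.94 for Gbp5, -2.24 to 6.68 for Gbp6, -1.23 to 5.05 for Gbp7, -1.20 to 8.12 for Gbp8, -0.70 to 6.33 for Gbp9 and -1.97 to 8.44 for Gbp10. The Ifngr2 value for therapy with both tumors ranged from -0.04 to 0.17. Where a group lost 1 library, the spread was shared with the other groups. Members with few reads, Gbp8 and Gbp10 above all, have ratios limited by counting.

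No paired analysis was possible because the labels give no replicate numbers that tie libraries across groups.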

Other observations

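The family genes Gbp11 and Gbp2b, outside the 9 members, were also highest in both-tumor therapy replicate 2. Gbp11, annotated as a polymorphic pseudogene on chromosome 5, measured 0.0776, 10.5 and 0.729 FPKM in intracranial-only IgG, 0.296, 0.235 and 5.20 in intracranial-only therapy, 3.16, 0.0963 and 1.70 in both-tumor IgG, and 5.09, 55.2 and 23.3 in both-tumor therapy. Its therapy effect with both tumors was 4.08 ± 1.75 (adjusted p = 0.132, edgeR). Of its 50-base stretches, 19.2% occur in another Gbp gene, so its reads are uncertain.

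Gbp2b had 0, 84 and 0 reads in intracranial-only IgG, 0, 1 and 68 in intracranial-only therapy, 26, 1 and 0 in both-tumor IgG, and 33, 215 and 171 in both-tumor therapy. Unlike the 9 members, Gbp2b was low in both-tumor IgG replicate 3. Its highest library was at least 67.7-fold higher than a library with 0 reads, taken at 3 reads in that library.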
